A study of Mus musculus with 6 samples.

Results

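Annexins are soluble proteins that bind negatively charged membrane lipids, phosphatidylserine above all, when calcium rises. Here 8 annexin genes (Anxa1, Anxa2, Anxa3, Anxa4, Anxa5, Anxa6, Anxa7 and Anxa11) were followed in HOXA9-immortalized granulocyte-macrophage progenitors (iGMPs) after loss of the histone chaperone CAF-1 or of HOXA9. They were picked by symbol from the 34199 gene symbols of the count data, and the family was chosen because CAF-1 OFF cells had a higher Anxa1 level than control cells. That contrast is therefore given as a description, and its calls appear only as counts from which nothing is read. All 8 genes were among the 12460 genes with enough reads to be tested. Of 4 other annexin symbols in the data, only Anxa9 was expressed well enough to be tested, while Anxa8, Anxa10 and Anxa13 had 0 reads in every library.

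The cells were a C57Bl/6 bone marrow line named Lys-GFP-ER-HoxA9. They carry GFP driven by the lysozyme promoter, as a reporter of myeloid maturation, and HOXA9 fused to an estrogen receptor domain, which keeps the fusion active only in the presence of estradiol. All cells grew with stem cell factor from conditioned medium. CAF-1 OFF cells received 500 µM IPTG for 24 h with 150 ng/ml estradiol, and so expressed a hairpin RNA directed at Chaf1b, which encodes a CAF-1 subunit. Control cells also received IPTG for 24 h with estradiol, and HOXA9 OFF cells were washed and kept without estradiol for 24 h. Clonal lines were used for the inducible hairpins in the study, but the labels did not name the clone or the hairpin vector of the control and HOXA9 OFF cells, nor did they say whether HOXA9 OFF cells received IPTG. HOXA9 OFF and control may therefore differ in more than estradiol, and CAF-1 OFF and control may differ in clone. Each group had 2 RNA-seq libraries, and the labels do not say whether they come from separate cultures. The study mentions independent sub-clones for RNA-seq of another time point, without a link to the replicate numbers used here, so p-values measure the spread between these libraries only.

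Annexins share a folded core that binds calcium and membrane, and differ in their amino-terminal tails, which bind partner proteins such as members of the S100 family. In myeloid cells the family is best known for Anxa1, a glucocorticoid-induced protein stored in neutrophils that acts through formyl peptide receptors to end inflammation. Other members assemble plasmin at the cell surface (Anxa2), seal damaged membranes (Anxa1, Anxa2, Anxa6) or cover exposed phosphatidylserine (Anxa5).

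The libraries held between 16773560 and 25170898 reads assigned to genes, and 3 reads corresponded to 0.118 to 0.182 CPM (reads relative to library size, with sizes adjusted by TMM, a trimmed mean over genes). Chaf1b stood at 90.0 and 105 CPM in control, 17.8 and 12.1 in CAF-1 OFF and 64.6 and 61.4 in HOXA9 OFF, so the targeted gene matched its labels. The summed CPM of 7 progenitor markers, such as Mpo and Cd34, was 11314 to 14321 in control, 15179 to 16769 in CAF-1 OFF and 11415 to 14354 in HOXA9 OFF, and each of these markers reached 1 CPM in every group. The summed CPM of 9 neutrophil markers was 125 to 190 in control, 578 to 855 in CAF-1 OFF and 588 to 1007 in HOXA9 OFF, with Ly6g at 0 in control and Ly6g below 1 CPM in the other groups. The summed CPM of monocyte and macrophage markers, such as Csf1r and Irf8, was 464 to 612, 649 to 689 and 803 to 944 in the same order. Mast cell, basophil and eosinophil markers summed to 747 to 1134, 1207 to 1729 and 3997 to 5394 CPM, with Fcer1a at 0 or below 1 CPM. Megakaryocyte markers summed to 88.9 to 110, 111 to 163 and 264 to 292 CPM, lymphoid markers (Cd3e at 0) to 98.4 to 110, 123 to 132 and 6.13 to 8.79 CPM. Erythroid markers (Car1 below 1 CPM) summed to 6.10 to 6.52, 5.67 to 11.6 and 11.6 to 17.9 CPM, and stromal markers to 0.675 to 1.62 CPM. The part of these marker differences in the annexin values below was not tested, and in bulk libraries fewer cells of a type and less RNA per cell cannot be told apart.

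Anxa1 (chr19:20447918-20465434, minus strand, NCBIM37, the assembly that mm9 names) encodes annexin A1, and its levels set the pattern around which the family was chosen. The promoter of the gene that chose the family is shown for its motif matches. The 250 bases before the RefSeq start of Anxa1 (chr19:20390672-20390921, minus strand, GRCm38.p6) follow, with capitals for matches to a searched motif.
Anxa1: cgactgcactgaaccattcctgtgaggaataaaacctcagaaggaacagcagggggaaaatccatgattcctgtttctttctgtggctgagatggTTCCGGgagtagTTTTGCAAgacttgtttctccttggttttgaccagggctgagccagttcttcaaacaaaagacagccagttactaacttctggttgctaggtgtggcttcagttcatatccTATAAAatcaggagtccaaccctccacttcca
The capitals mark, from 5′ to 3′, an ETS core (CCGGAA) 155 bases before the start, a C/EBP pattern (TTGCNNAA) 143 bases before it and a TATA box (TATAAA) 32 bases before it, each read on either strand. In the C/EBP pattern N is any base, so a match does not establish a pair of half-sites. None of these matches overlapped another. The CCAAT box (CCAAT) and the glucocorticoid receptor half-site (AGAACA) were searched too and had no match in this window. Among 32851 promoter windows of the same length, 12.0% held the ETS core, 9.56% the C/EBP pattern, 12.4% the TATA box, 33.8% CCAAT and 16.1% AGAACA. GC content of the Anxa1 window was 46.0%, against a median of 52.4% over all windows.

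Anxa1 read counts were 3593 and 1955 in control, 7993 and 6241 in CAF-1 OFF and 19475 and 12562 in HOXA9 OFF. On the scaled level these were 141 and 113 CPM in control, 415 and 316 CPM in CAF-1 OFF, and 940 and 762 CPM in HOXA9 OFF. No group overlapped another, and CAF-1 OFF lay between control and HOXA9 OFF in every library. Mean levels were 127 ± 19.5, 366 ± 70.2 and 851 ± 126 CPM (SD, n = 2 each). The log2 fold change of CAF-1 OFF against control was 1.52 ± 0.19 (SE), or 2.87-fold, which is the difference that chose the family. HOXA9 OFF against control gave a log2 fold change of 2.74 ± 0.19, or 6.68-fold, and CAF-1 OFF against HOXA9 OFF gave -1.22 ± 0.18. These values are also descriptions for Anxa1, since each uses libraries that entered the choice. Anxa1 was the only family member whose mean was lowest in control and highest in HOXA9 OFF.

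**Figure D1:**
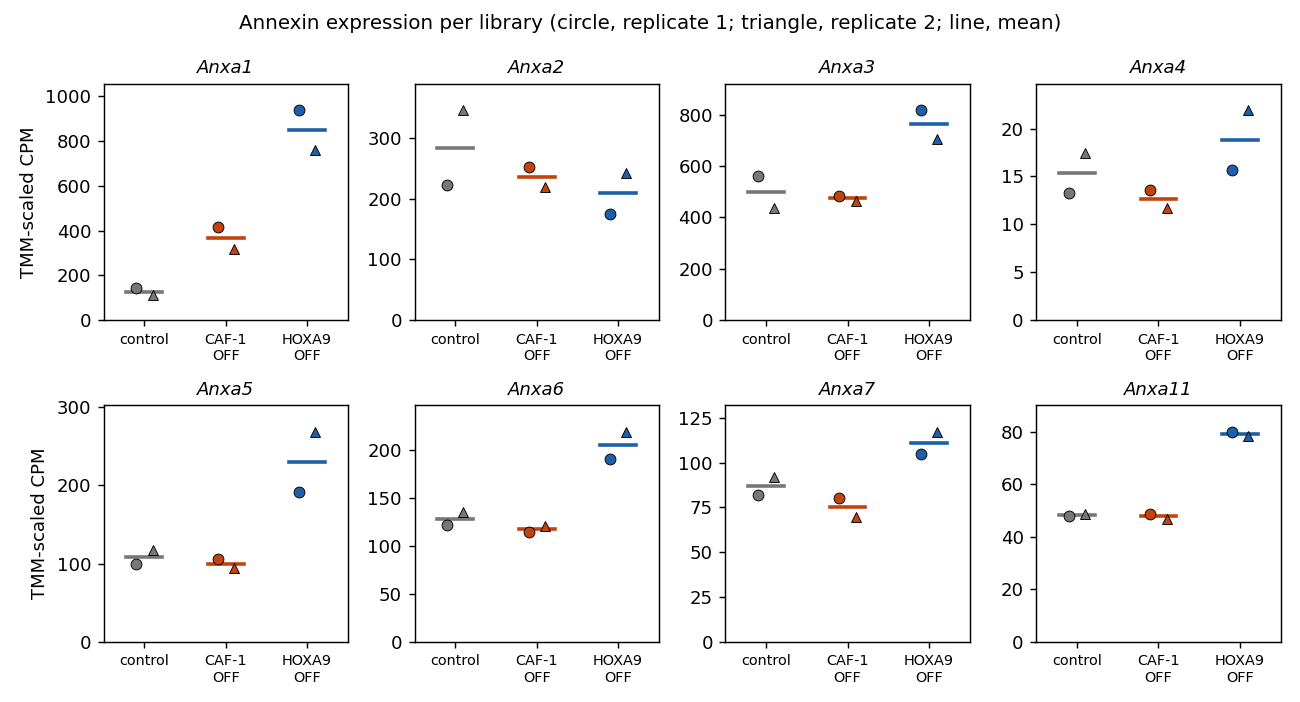
Scaled expression (CPM) of each annexin gene in the 6 libraries, by group. Circles are replicate 1, triangles replicate 2 and lines the group means. Anxa1 is the only gene whose CAF-1 OFF libraries both exceed both control libraries, and HOXA9 OFF libraries lie above control for Anxa1, Anxa3, Anxa5, Anxa6, Anxa7 and Anxa11. Of the 12460 genes tested, 2508 have both CAF-1 OFF libraries above both control libraries, and 4374 have both HOXA9 OFF libraries above them.

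The other annexins lay near control in CAF-1 OFF cells. None of the 8 family members was called in CAF-1 OFF against control by the edgeR quasi-likelihood test at 1.5-fold and an FDR (false discovery rate, Benjamini-Hochberg) under 0.05, and 0.0321% of all genes tested were called. At an unadjusted p under 0.05 there was 1 member, against 10.7% of all genes tested. DESeq2, the edgeR exact test and the quasi-likelihood test with the replicate number as a block called 1 member each, where they called 1.54%, 1.95% and 0.0161% of all genes tested. That member was Anxa1 each time, the gene whose values in this contrast chose the family. Both CAF-1 OFF libraries lay above both control libraries for 1 member and below them for 2 (Anxa6 and Anxa7), where 20.1% and 20.0% of all genes tested did so. None of these counts is evidence about Anxa1 or the family. The 7 members other than Anxa1 had log2 fold changes from -0.27 to -0.01, and the median of the 8 was -0.12 against -0.00 over all genes tested. The 95% confidence intervals were narrowest for Anxa11 (-0.25 to 0.22) and widest for Anxa2 (-0.84 to 0.30).

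In HOXA9 OFF cells several annexins rose. Compared with control, 5 of the 8 members met the call cutoffs upward and 0 downward, where 13.0% of all genes tested were called higher and 8.97% lower. Those called were Anxa1, Anxa3, Anxa5, Anxa6 and Anxa11, and the median log2 fold change of the 8 was 0.64 against -0.00 over all genes tested. The control libraries are shared with the contrast that chose the family. In the direct comparison of CAF-1 OFF with HOXA9 OFF, whose fold changes use no control library although the shared fit takes its spread from all 6, the same 5 members were called lower in CAF-1 OFF and 0 were called higher, where 12.6% and 9.56% of all genes tested were called. Anxa1 is counted there although its CAF-1 OFF level chose it, and the other 4 stand without it. The HOXA9 OFF libraries are the same in both comparisons, so the return of the same 5 members is not independent support. By group means, 6 members were highest in HOXA9 OFF and lowest in CAF-1 OFF, 1 (Anxa1) was highest in HOXA9 OFF and lowest in control, and 1 (Anxa2) was highest in control and lowest in HOXA9 OFF. For Anxa3, Anxa4, Anxa5 and Anxa11 the CAF-1 OFF and control libraries overlapped. This order uses the contrast that chose the family and was not counted over all genes, so nothing is read from it.

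**Figure D2:**
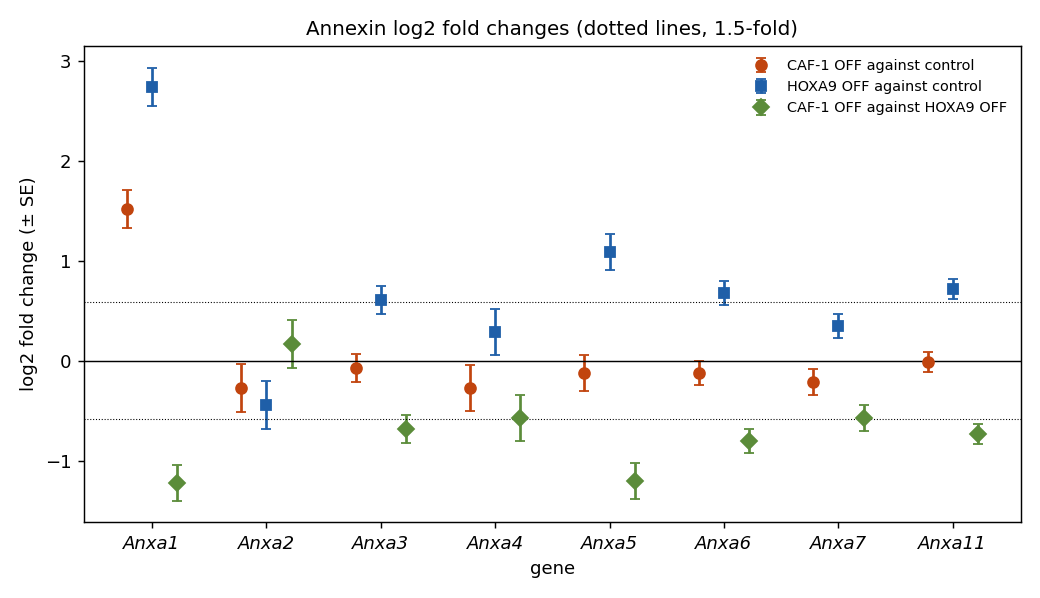
Log2 fold change (vertical axis, ± SE) of each annexin in the 3 comparisons, with dotted lines at a 1.5-fold change. CAF-1 OFF against control lies within -0.27 and -0.01 for all but Anxa1 (1.52), whereas HOXA9 OFF against control is positive for all but Anxa2 (-0.44).

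Anxa5 (chr3:36347847-36374765, minus strand) encodes the annexin whose binding to phosphatidylserine is used to stain dying cells and which shields procoagulant membranes. Its levels were 99.8 and 117 CPM in control, 105 and 94.7 CPM in CAF-1 OFF, and 191 and 269 CPM in HOXA9 OFF. Control and CAF-1 OFF overlapped, and both HOXA9 OFF libraries lay above them. Anxa5 rose in HOXA9 OFF with a log2 fold change of 1.09 ± 0.18 (edgeR quasi-likelihood FDR 0.00591), or 2.12-fold. Relative to HOXA9 OFF it was lower in CAF-1 OFF by -1.20 ± 0.18 on the log2 scale (edgeR FDR 0.00457). After Anxa1 it was the member with the second largest log2 fold change in both comparisons.

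Anxa11 (chr14:26661669-26706290, plus strand) encodes an annexin with a long amino-terminal tail that binds S100a6 and takes part in the final steps of cell division. Its levels were 47.7 and 48.5 CPM in control, 48.6 and 46.9 CPM in CAF-1 OFF, and 80.0 and 78.5 CPM in HOXA9 OFF. The 4 libraries with estradiol spanned less than 2 CPM, and both HOXA9 OFF libraries lay well above that span. The log2 fold change in HOXA9 OFF against control was 0.72 ± 0.10 (edgeR FDR 0.00329), and that of CAF-1 OFF against HOXA9 OFF was -0.73 ± 0.10 (edgeR FDR 0.00326). Of the family, Anxa11 had the smallest standard error and the CAF-1 OFF value closest to control, -0.01 ± 0.10.

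Anxa6 (chr11:54792610-54846947, minus strand) encodes a large annexin with a duplicated core that acts on endosomes and in membrane repair. Its coding length is 2019 bases, against 957 to 1065 bases for Anxa1 to Anxa5. Levels were 122 and 135 CPM in control, 114 and 121 CPM in CAF-1 OFF, and 191 and 219 CPM in HOXA9 OFF. Both CAF-1 OFF libraries lay just below control and both HOXA9 OFF libraries above it. The HOXA9 OFF difference passed the test at a log2 fold change of 0.68 ± 0.12 (edgeR FDR 0.00684), as did CAF-1 OFF against HOXA9 OFF at -0.80 ± 0.12 (edgeR FDR 0.00414). Without HOXA9 OFF replicate 2 the former fell below the 1.5-fold minimum (0.57, edgeR FDR 0.0461).

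Anxa3 (chr5:97222404-97274987, plus strand) encodes a neutrophil annexin that associates with granule membranes. Its levels were 559 and 438 CPM in control, 485 and 464 CPM in CAF-1 OFF, and 819 and 705 CPM in HOXA9 OFF. CAF-1 OFF lay inside the control range, and HOXA9 OFF lay above both. The HOXA9 OFF difference was called at a log2 fold change of 0.61 ± 0.14 (edgeR FDR 0.0203), close to the 1.5-fold minimum. The call was lost without control replicate 2 (0.45, edgeR FDR 0.110), without HOXA9 OFF replicate 1 (0.50, edgeR FDR 0.111) and when libraries were scaled by size alone (0.53, edgeR FDR 0.0254, below 1.5-fold). CAF-1 OFF against HOXA9 OFF gave -0.68 ± 0.14 (edgeR FDR 0.0143), and without HOXA9 OFF replicate 1 it gave -0.57 (edgeR FDR 0.0803).

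Anxa7 (chr14:21274483-21299355, minus strand) encodes synexin, an annexin that fuses secretory vesicles and binds the calcium sensor sorcin. Levels were 82.1 and 91.8 CPM in control, 80.4 and 69.5 CPM in CAF-1 OFF, and 105 and 117 CPM in HOXA9 OFF. The 3 groups did not overlap, with CAF-1 OFF lowest. HOXA9 OFF against control did not pass (log2 fold change 0.35 ± 0.12, 95% CI 0.05 to 0.65, edgeR FDR 0.0758). CAF-1 OFF against HOXA9 OFF had an edgeR FDR of 0.0171 at -0.57 ± 0.13, which was 1.48-fold and so under the fold minimum. It met the cutoffs without CAF-1 OFF replicate 1 (-0.67, edgeR FDR 0.0257) and without HOXA9 OFF replicate 1 (-0.65, edgeR FDR 0.0495).

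Anxa4 (chr6:86686834-86743578, minus strand), best known from epithelia, was the least abundant member. Levels were 13.2 and 17.5 CPM in control, 13.6 and 11.7 CPM in CAF-1 OFF, and 15.7 and 21.9 CPM in HOXA9 OFF. Control overlapped both of the other groups. Neither HOXA9 OFF against control (0.29 ± 0.23, edgeR FDR 0.373) nor CAF-1 OFF against HOXA9 OFF (-0.57 ± 0.23, edgeR FDR 0.108) passed the test, with 95% CIs of -0.25 to 0.84 and -1.11 to -0.02.

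Anxa2 (chr9:69301427-69339602, plus strand) encodes the annexin that pairs with S100a10 to bind plasminogen and its activator at the cell surface. Levels were 222 and 346 CPM in control, 252 and 219 CPM in CAF-1 OFF, and 175 and 243 CPM in HOXA9 OFF. All 3 groups overlapped, and the control libraries lay far apart. The log2 fold change in HOXA9 OFF against control was -0.44 ± 0.24 (95% CI -1.01 to 0.12, edgeR FDR 0.206), and that of CAF-1 OFF against HOXA9 OFF was 0.17 ± 0.24 (95% CI -0.40 to 0.74, edgeR FDR 0.623). In CAF-1 OFF against control, the value moved between -0.55 and 0.08 as single libraries were left out. An antisense transcript, Gm16144, shares 98 bases of exon with Anxa2, and the strand setting of the counting is not given in the sources used here, so its reads may be counted with it.

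Anxa9, outside the 8, encodes an annexin thought to bind calcium poorly. Its counts were 319 and 265 in control, 287 and 221 in CAF-1 OFF and 154 and 151 in HOXA9 OFF. It was lower in HOXA9 OFF than in control (log2 fold change -0.75 ± 0.23, edgeR FDR 0.0467), opposite in sign to the annexins called above.

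For 3 relatives of Anxa1 the 150 bases before the RefSeq start are printed, to set Anxa1 beside the least variable pattern (Anxa11), the member with the next largest change (Anxa5) and the member with the opposite sign (Anxa2). Coordinates are GRCm38.p6: Anxa2 chr9:69453533-69453682 (plus strand), Anxa5 chr3:36475888-36476037 (minus strand) and Anxa11 chr14:25842005-25842154 (plus strand).
Anxa2: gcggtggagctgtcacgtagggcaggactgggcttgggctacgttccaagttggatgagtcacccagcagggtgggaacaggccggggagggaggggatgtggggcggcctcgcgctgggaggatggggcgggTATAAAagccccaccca
Anxa5: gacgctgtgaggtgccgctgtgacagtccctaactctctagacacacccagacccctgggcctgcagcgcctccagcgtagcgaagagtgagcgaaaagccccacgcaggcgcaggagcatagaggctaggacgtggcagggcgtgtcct
Anxa11: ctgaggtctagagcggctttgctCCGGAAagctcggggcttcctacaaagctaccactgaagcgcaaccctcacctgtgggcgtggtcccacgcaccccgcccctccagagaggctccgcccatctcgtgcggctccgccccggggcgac
Capitals again mark motif matches. In the full 250 bases, Anxa2 held TATAAA 17 bases before the start, Anxa11 held CCGGAA 127 bases before it, and Anxa5 held none of the 5 motifs. GC content of the 250 bases was 62.4% for Anxa2, 58.8% for Anxa5 and 58.0% for Anxa11, against 46.0% for Anxa1, and CpG dinucleotides numbered 9, 13, 17 and 2. A low GC content is not particular to Anxa1, since 1 of the 2 listed starts of Anxa4 (42.0%) and of Anxa7 (42.4%) also had 2 CpG dinucleotides, and their other starts had 64.8% and 62.0% GC. The Anxa4 start with 42.0% GC held the C/EBP pattern too, 208 bases before it, and AGAACA at 199 and 18 bases before it. A match is a description of letters and not of a bound site. The promoter table used here matched 6 of the 8 members, all but Anxa3 and Anxa6.

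Levels of different genes were compared per length, as mean CPM per kilobase of merged exons. In control the order was Anxa3 (312 ± 53.7, SD, n = 2), Anxa2 (76.2 ± 23.5), Anxa5 (64.6 ± 7.27), Anxa1 (48.8 ± 7.50), Anxa6 (43.8 ± 3.27), Anxa7 (28.7 ± 2.26), Anxa11 (11.7 ± 0.139) and Anxa4 (3.31 ± 0.645). The neighbours Anxa2 and Anxa5, and Anxa1 and Anxa6, overlapped between libraries, and the other 5 of 7 neighbouring pairs did not. In CAF-1 OFF, Anxa1 stood at 140 ± 26.9 CPM per kilobase, next to Anxa3 (297 ± 9.37) and above Anxa2 (63.1 ± 6.36). There, only Anxa2 and Anxa5 (59.6 ± 4.45) overlapped. In HOXA9 OFF the order was Anxa3 (477 ± 50.3), Anxa1 (326 ± 48.3), Anxa5 (137 ± 32.7), Anxa6 (70.0 ± 6.96), Anxa2 (56.0 ± 12.9), Anxa7 (36.6 ± 2.94), Anxa11 (19.3 ± 0.266) and Anxa4 (4.05 ± 0.954), with overlap between Anxa6 and Anxa2 only. Anxa3 had the highest level per length in all 3 groups. With the length of the longest transcript in place of merged exons, Anxa1 (76.1) ranked above Anxa5 (64.6) in control.

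**Figure D3:**
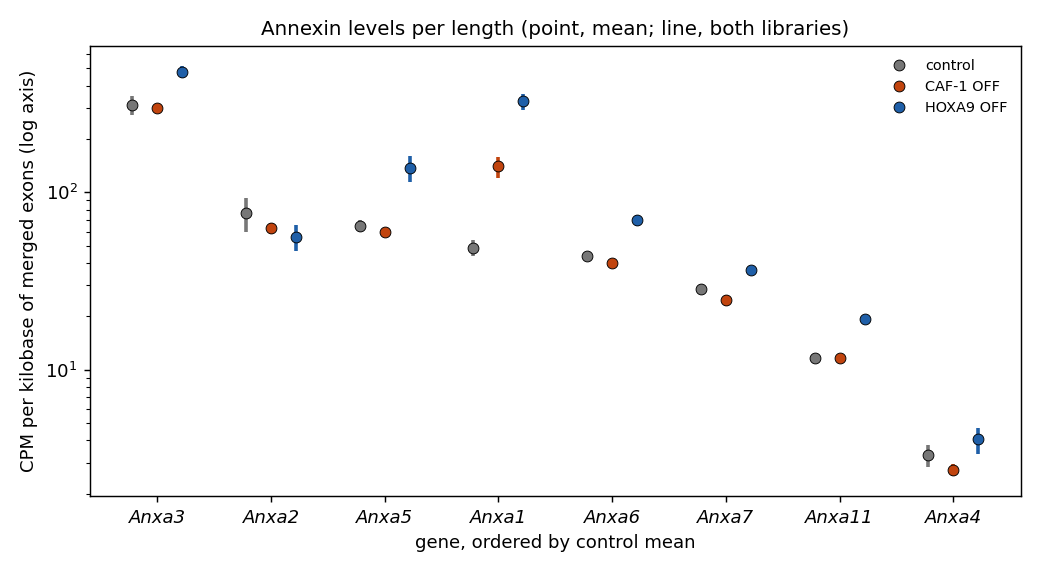
Mean level of each annexin per length (CPM per kilobase of merged exons, log axis) in the 3 groups, ordered by the control mean, with lines joining both libraries. Anxa3 is highest in every group, and Anxa1 stands behind Anxa3, Anxa2 and Anxa5 in control and next to Anxa3 in CAF-1 OFF and HOXA9 OFF.

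Anxa1 took a larger share of annexin transcripts outside control, which for CAF-1 OFF restates the difference that chose the family. Summed over the 8 members, the level was 1287 and 1308 CPM in control, 1515 and 1343 CPM in CAF-1 OFF, and 2515 and 2415 CPM in HOXA9 OFF. Anxa1 made up 10.96% (exact binomial 95% interval 10.6% to 11.3%) and 8.68% (8.31% to 9.05%) of annexin reads in the control libraries. Its share was 27.4% (26.9% to 27.9%) and 23.5% (23.0% to 24.1%) in CAF-1 OFF, and 37.4% (36.9% to 37.8%) and 31.5% (31.1% to 32.0%) in HOXA9 OFF. These intervals cover counting error only. The ratio of Anxa1 to Anxa3 reads, which no scaling of libraries can move, was 0.252 and 0.259 in control, 0.856 and 0.681 in CAF-1 OFF and 1.15 and 1.08 in HOXA9 OFF. The ratio of Anxa1 to Anxa2 reads was 0.635 and 0.328, 1.65 and 1.45, and 5.37 and 3.14 in the same order. The groups did not overlap in either ratio. Against each of the other 5 annexins, the Anxa1 ratio in both control libraries was also below that in all others, but CAF-1 OFF and HOXA9 OFF overlapped for Anxa5 (3.95 and 3.34 against 4.91 and 2.83) and Anxa6 (3.63 and 2.60 against 4.93 and 3.47). Every such share and ratio contains the gene that chose the family, so they are descriptions only.

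**Figure D4:**
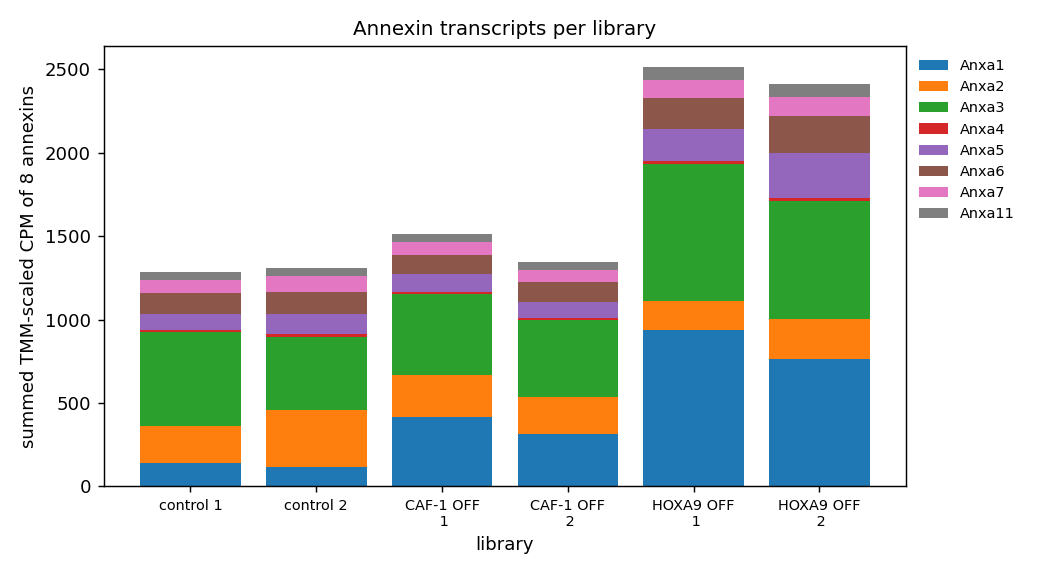
Summed scaled expression (CPM, bars from 0) of the 8 annexins in each library, with a coloured segment for each gene. Control and CAF-1 OFF bars lie between 1287 and 1515 CPM with a larger Anxa1 segment in CAF-1 OFF, and HOXA9 OFF bars reach 2415 and 2515 CPM.

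To place the annexins among their partners, 7 lists of 55 symbols were followed, of which 42 were tested. In CAF-1 OFF against control 0 of the 42 were called by the edgeR quasi-likelihood test, 7 had an unadjusted p under 0.05, and DESeq2 and the exact test called 2 each. Of all genes tested, 0.0321%, 10.7%, 1.54% and 1.95% met these criteria in that order. In HOXA9 OFF against control 14 of the 42 were called higher and 0 lower, where 13.0% and 8.97% of all genes tested were called. The median log2 fold change of the 42 was 0.42 against -0.00 over all genes tested. In CAF-1 OFF against HOXA9 OFF 14 were called lower and 1 was called higher, where 12.6% and 9.56% of all genes tested were called. The lists with tested genes hold 4 to 10 of them each, and the formyl peptide receptor list holds 0, so their counts are descriptions beside these shares.

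S100 proteins are the small calcium-binding partners of annexin tails, and 3 of 4 rose in HOXA9 OFF, where 13.0% of all genes tested did. S100a11, the partner of Anxa1, stood at 42.0 and 39.9 CPM in control, 54.0 and 46.8 in CAF-1 OFF and 119 and 98.6 in HOXA9 OFF. Its log2 fold change was 1.41 ± 0.14 in HOXA9 OFF against control (edgeR FDR 0.00115) and 0.30 ± 0.14 in CAF-1 OFF against control (edgeR FDR 0.496). CAF-1 OFF and HOXA9 OFF also differed directly for S100a11 (-1.11 ± 0.14, edgeR FDR 0.00242). S100a6 (log2 fold change 1.58 ± 0.47, edgeR FDR 0.0450) and S100a4 (3.31 ± 0.90, edgeR FDR 0.0333) were called in HOXA9 OFF as well, with S100a4 at 6.80 and 38.8 CPM in the 2 HOXA9 OFF libraries. In CAF-1 OFF against HOXA9 OFF, S100a6 was not called (-1.36 ± 0.47, edgeR FDR 0.0690). S100a4 had 1.10 and 3.60 CPM in control and 0.364 and 0.810 CPM in CAF-1 OFF, a log2 fold change of -1.94 ± 1.07 that was not called (edgeR FDR 0.574), and it was called lower in CAF-1 OFF against HOXA9 OFF (-5.26 ± 1.05, edgeR FDR 0.0121). S100a10, the partner of Anxa2, was not called in any of the 3 comparisons, with log2 fold changes of -0.03 ± 0.17 in HOXA9 OFF and 0.16 ± 0.17 in CAF-1 OFF against control.

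In the plasminogen list, 2 of 4 tested genes rose in HOXA9 OFF, against 13.0% of all genes tested. Ahnak, a giant scaffold protein bound by the Anxa2 and S100a10 complex, stood at 2.71 and 2.73 CPM in control, 3.12 and 2.99 in CAF-1 OFF and 45.0 and 82.4 in HOXA9 OFF. Its libraries in control and CAF-1 OFF lay close together, and its log2 fold change in HOXA9 OFF was 4.55 ± 0.32 (edgeR FDR 0.000475). Plaur, the urokinase receptor, rose by 1.49 ± 0.16 on the log2 scale (edgeR FDR 0.00162). In CAF-1 OFF against HOXA9 OFF, Ahnak (-4.38 ± 0.32, edgeR FDR 0.000538) and Plaur (-0.90 ± 0.16, edgeR FDR 0.00791) were called lower, where 12.6% of all genes tested were. Serpinb2, an inhibitor of plasminogen activators, was the 1 list gene called higher by the direct test of CAF-1 OFF against HOXA9 OFF (2.58 ± 0.60, edgeR FDR 0.0199). Its counts were 20 and 4 in control, 136 and 113 in CAF-1 OFF and 32 and 9 in HOXA9 OFF, and against control its CAF-1 OFF log2 fold change of 3.57 ± 0.64 did not pass (edgeR FDR 0.153). All 4 tested genes of this list had positive log2 fold changes in CAF-1 OFF against control, with a median of 1.21, where 6132 of the 12460 genes tested were positive. Over the 42 tested genes of all lists, 27 were positive and 15 negative there, with a median of 0.16. In the membrane repair list 3 of 10 were positive, with a median of -0.08.

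Anxa1 was first described as an inhibitor of phospholipase A2, which frees the fatty acid for leukotrienes and prostaglandins. In this list 4 of 7 tested genes rose in HOXA9 OFF, against 13.0% of all genes tested, and 0 were called lower. With log2 fold changes in parentheses, they were Ptges, a prostaglandin E synthase (2.83 ± 0.52, edgeR FDR 0.00895), Lta4h, which makes a leukotriene that attracts neutrophils (1.66 ± 0.18, edgeR FDR 0.00156), Alox5ap, the activator of the lipoxygenase (1.41 ± 0.18, edgeR FDR 0.00262), and the cyclooxygenase Ptgs1 (0.87 ± 0.13, edgeR FDR 0.00389). All 4 passed the direct test of CAF-1 OFF against HOXA9 OFF as lower, with log2 fold changes from -3.48 to -0.62. Of all genes tested, 12.6% were called lower there, and the HOXA9 OFF libraries are the same in both comparisons. Pla2g4a, the cytosolic phospholipase A2 itself, had 163 and 187 CPM in control, 167 and 182 in CAF-1 OFF and 105 and 132 in HOXA9 OFF. Its HOXA9 OFF libraries lay below all others, at a log2 fold change against control of -0.57 ± 0.14 (edgeR FDR 0.0254), which was under the fold minimum. Alox5, the lipoxygenase itself, was too low to test, with 5 and 1 reads in control, 13 and 10 in CAF-1 OFF and 10 and 5 in HOXA9 OFF.

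Of 9 genes that expose or retain phosphatidylserine, the lipid that annexins bind, 2 rose in HOXA9 OFF, against 13.0% of all genes tested. They were Atp8a1, a flippase (log2 fold change 1.57 ± 0.25, edgeR FDR 0.00521), and the scramblase Ano6 (0.70 ± 0.21, edgeR FDR 0.0446). Against HOXA9 OFF, both were lower in CAF-1 OFF, as was the flippase Atp11a (-0.68 ± 0.17, edgeR FDR 0.0264), where 12.6% of all genes tested were called lower. The scramblase Plscr3 had a HOXA9 OFF log2 fold change of -0.49 ± 0.11 against control (edgeR FDR 0.0203), and the scramblase Plscr1 of 0.55 ± 0.15 (edgeR FDR 0.0372), both under the fold minimum. Of 10 membrane repair genes, 3 rose in HOXA9 OFF, again beside 13.0% of all genes tested. These were the calpains Capn2 (log2 fold change 0.83 ± 0.21, edgeR FDR 0.0259) and Capn1 (0.73 ± 0.12, edgeR FDR 0.00592) and Sri, which encodes sorcin (0.70 ± 0.09, edgeR FDR 0.00293). The same 3 were lower in CAF-1 OFF when set against HOXA9 OFF, beside 12.6% of all genes tested, in a comparison that shares the HOXA9 OFF libraries.

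Glucocorticoids are a known inducer of Anxa1, and 0 of 8 glucocorticoid response genes were called in any of the 3 comparisons by the edgeR quasi-likelihood test. The calls over all genes tested came to 0.0321% in CAF-1 OFF against control, 13.0% higher and 8.97% lower in HOXA9 OFF against control, and 9.56% higher and 12.6% lower in CAF-1 OFF against HOXA9 OFF. At an unadjusted p under 0.05 there was 1 in CAF-1 OFF against control, and there were 3 each in HOXA9 OFF against control and in CAF-1 OFF against HOXA9 OFF. The shares over all genes tested were 10.7%, 41.9% and 42.3%, so these counts lay near the background. Fkbp5 (log2 fold change 0.52 ± 0.09, edgeR FDR 0.00790) and Per1 (0.58 ± 0.15, edgeR FDR 0.0262) in CAF-1 OFF against HOXA9 OFF, and Fkbp5 in HOXA9 OFF against control (-0.30 ± 0.09, edgeR FDR 0.0483), missed a call by the fold minimum alone. The median log2 fold changes of the list were 0.11, 0.07 and 0.05 in the order above. Formyl peptide receptors, through which Anxa1 signals, were too low to test. Fpr1 had 0 reads in the control and CAF-1 OFF libraries and 10 and 2 in HOXA9 OFF, and Fpr2 had 0 in the former and 19 and 7 in the latter. A count of 0 allows up to 3 reads, or 0.174 CPM in the shallowest of those libraries.

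**Figure D5:**
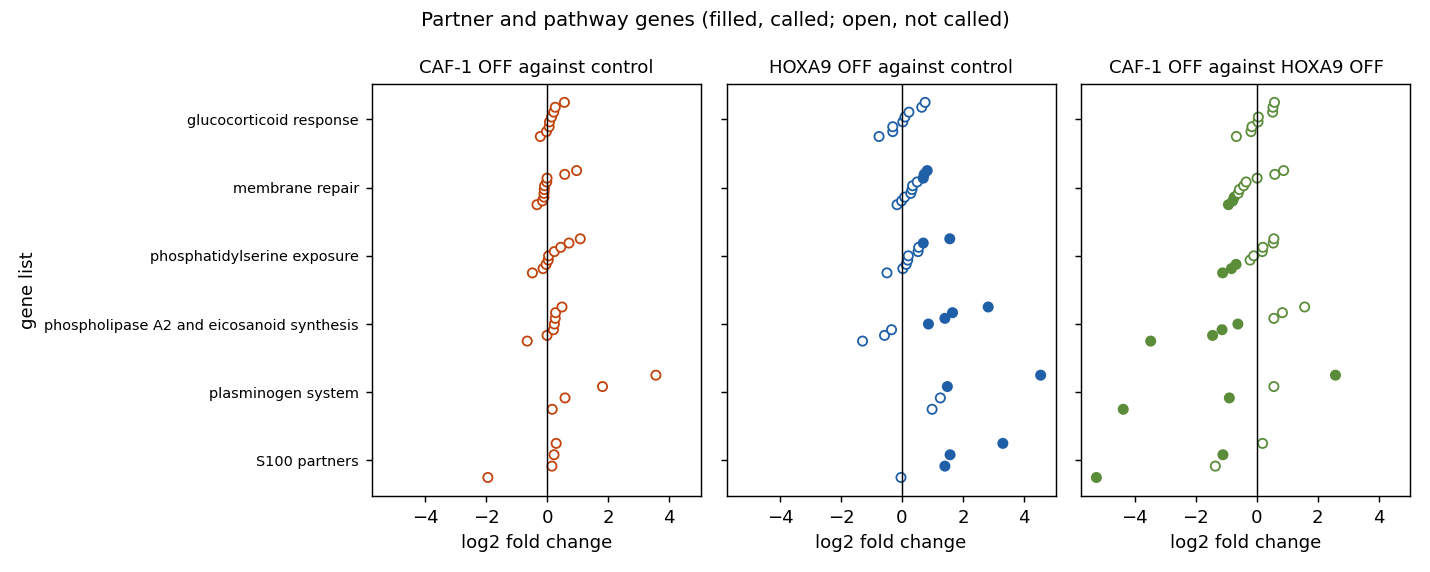
Log2 fold change (horizontal axis) of each tested partner or pathway gene, by list and comparison, filled where called and open where not. By the edgeR quasi-likelihood test, 0 genes are called in CAF-1 OFF against control (0.0321% of all genes tested), and 14 in HOXA9 OFF against control, all higher (13.0% of all genes tested).

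Over the 6 libraries, the genes whose log2 CPM followed Anxa1 most closely among 9614 genes at or above a mean of 5 CPM were Pdik1l (Pearson r = 0.9974), Tmem50b (0.9966), Pdia3 (0.9945), Slc35d1 (0.9943) and Emilin1 (0.9935). Tmem50b had 40.9 and 39.1 CPM in control, 72.9 and 67.5 in CAF-1 OFF and 122 and 112 in HOXA9 OFF. Emilin1, an extracellular matrix glycoprotein, had 190 and 185, 278 and 250, and 405 and 375 CPM in the same order. Both rank the 6 libraries exactly as Anxa1 does, and so do 131 genes in all, the 5 named among them. The libraries fall into 3 groups, so these values describe a shared group pattern. Of the other annexins, r with Anxa1 was 0.82 for Anxa11, 0.77 for Anxa3, 0.72 for Anxa5, 0.69 for Anxa6, 0.52 for Anxa7, 0.30 for Anxa4 and -0.65 for Anxa2.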

How the data were processed

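Expression was measured by RNA-seq of total RNA in 6 libraries. The authors aligned reads to mm9 with STAR, and HTSeq gave the reads per gene, without versions in the submitters' processing notes. The authors deposited these as raw counts by gene symbol, not normalized. The annotation, strand setting and overlap mode of the counting are not given in the sources used here, and reads that align to several places are not assigned to genes. The tally lines were kept out of library sizes. Set against assigned reads, those without a feature came to between 5.95% and 8.26%, and ambiguous reads to between 3.00% and 3.28%. The tally of alignments that were not unique came to between 89.6% and 106.7% of assigned reads.

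Groups and replicate numbers came from the sample titles. The series design text speaks of 0 h and 24 h, whereas all titles give 24 h. The members and lists were chosen with earlier results of these data known. The named genes were the 8 annexins, Chaf1b, the 5 genes most correlated with Anxa1, and of each partner list those called in a comparison (at most 3 per direction) or the sole member measured. Other genes (S100a10, Fpr1, Fpr2, Ptgs1, Pla2g4a, Alox5, Plscr1, Plscr3, Fkbp5, Per1 and Serpinb2 against control) were named after their values were seen. The level of 1 listed marker gene is not reported here.

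The analysis used edgeR 4.0.16, limma 3.58.1 and R 4.3.3. Genes kept by filterByExpr (12460) were scaled by TMM (factors 0.954 to 1.03) and fitted with the quasi-likelihood model, 1 mean per group over 6 libraries. Calls required 1.5-fold and a Benjamini-Hochberg FDR under 0.05, the study's cutoffs. Log2 CPM for correlations used a prior count of 2. Alternatives were DESeq2 1.42.0, the exact test, other scalings, filters and cutoffs, a fit of 4 libraries, a replicate block and each library left out. With 2 libraries per group, an exact permutation test of a single value cannot go below a two-sided p of 0.333, so none is given. The model was tested on simulated counts. Replicates differed beyond counting noise (chi-square per degree of freedom 20.5 to 27.6), so no library was a duplicate. Gene coordinates are from GENCODE on NCBIM37, and promoter sequences from RefSeq on GRCm38.p6.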

Additional observations from a re-analysis of the deposited data

How the results depend on the processing

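Over the 14 alternatives that refit or rescaled the data at the same cutoffs, 108 annexin fold changes in HOXA9 OFF against control kept their direction and, where tested, their call, and 4 lost a call. In CAF-1 OFF against HOXA9 OFF, 108 kept both, 1 lost a call, 2 gained one and 1 turned its sign, that of Anxa2 (-0.04 without HOXA9 OFF replicate 1, and up to 0.43 without replicate 2). In CAF-1 OFF against control, which is only described here, values near 0 changed sign for Anxa2, Anxa3, Anxa5 and Anxa11. The causes were not tested. In the same comparison, 1 annexin (Anxa1) was called with DESeq2, with the exact test and with no filter. There, pathway genes numbered 2 with DESeq2, 2 with the exact test and 5 with no filter, where 192 and 243 of 12460 and 378 of 19883 genes were called in all. At 2-fold and FDR under 0.01, 2 annexins (Anxa1 and Anxa5) were called in each HOXA9 OFF comparison, and Anxa3, Anxa6 and Anxa11 were not, and pathway genes numbered 7 in HOXA9 OFF against control and 5 in CAF-1 OFF against HOXA9 OFF, beside 987 and 948 of all 12460 genes. Leaving out each library in turn gave 0 to 0 annexins in CAF-1 OFF against control, 4 to 5 in HOXA9 OFF against control and 5 to 6 in CAF-1 OFF against HOXA9 OFF, and 0 to 0, 10 to 14 and 10 to 17 pathway genes, beside 0 to 10, 1592 to 2817 and 1716 to 2728 of all genes. With a library left out, its group had 1 library, assumed to vary like the other groups. Of the 5 genes most like Anxa1, 3 stayed under library size alone.

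Replicate numbers were shared by the groups but are not stated to pair cultures. Deviations of same-numbered libraries correlated at -0.18 (CAF-1 OFF with control), 0.46 (HOXA9 OFF with control) and 0.04 (CAF-1 OFF with HOXA9 OFF). With the replicate block, 1 annexin (Anxa1) and 0 pathway genes were called in the CAF-1 OFF comparison with control, 5 and 13 in that of HOXA9 OFF with control, and 5 and 15 in CAF-1 OFF against HOXA9 OFF, beside 2, 2680 and 2684 of all 12460 genes. A crossed block, added after the data were seen, called 1 annexin and 1 pathway gene in CAF-1 OFF against control, and 71 genes in all.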
